A study of Homo sapiens with 6 samples.

Results

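The p53 target genes described here are 33 genes chosen by symbol as established transcriptional targets of the tumour suppressor p53, with the condition that the mean of 2 raised to the deposited log2 value be at least 10 over the libraries. All 33 were matched to 1 gene row each, and all 33 met the condition, among 14763 of 57820 gene rows that did. They were sorted into 5 genes of cell cycle arrest, 9 of cell death, 5 of DNA repair, 7 of feedback on p53 and related control, and 7 of stress defence and metabolism. Messenger RNA had been sequenced from the cell line hTert-HME1, which derives from human mammary epithelium and was immortalised by the telomerase gene, after transfection of siRNA and a recovery period. The groups were BRCA2-2 siRNA in medium without EGF (2 libraries, A and B, passage 6), BRCA2-2 siRNA in complete medium with EGF (1 library, passage 4) and control-1 siRNA in complete medium with EGF (3 libraries, A and B at passage 6 and P4 at passage 4). All come from the 1 cell line. EGF is the ligand of the growth factor receptor EGFR, and BRCA2 is a repair factor of homologous recombination. Control siRNA without EGF was not analysed here, so siRNA and medium differ together at passage 6. Values are on the authors' normalised log2 scale, the depth of each library is unknown, and a fold change here is 2 raised to a difference of log2 values. The labels name A and B biological replicates but do not say whether they were separate cultures, so p-values rest on the spread between libraries, part of which may be technical. In such bulk RNA, fewer cells of a kind and less of an RNA in each cell cannot be told apart.

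The protein p53 is a transcription factor that accumulates when cells sense DNA damage, replication stress or other insults. It binds response elements made of consensus decamers and raises the transcription of genes that arrest the cycle, repair DNA, alter metabolism or start apoptosis, and of genes such as MDM2 that return p53 to a low level. Cells without BRCA2 accumulate DNA breaks, a known trigger of p53, and mammary epithelial cells in culture depend on EGF for growth. Many of these genes also respond to signals that do not pass through p53, among them growth factor withdrawal and the amino acid response.

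Sequences are shown to place the members beside the element that p53 reads. RefSeq promoter windows of GRCh38.p14, which run from 250 bases before to 50 bases after an annotated start, were at hand for 27 of the 33 genes. They were searched for the p53 consensus decamer, a palindrome of 10 letters (purines, then C, A or T bases, G, and pyrimidines), so that both strands give the same matches. A match was found in 6 of 27 members with a window (22.2%), against 815 of 10456 tested genes (7.8%). A match is only a run of letters, and many p53 elements lie outside these windows. The matched letters, in capitals, read 5′ to 3′ on the strand of the gene; in DDB2 a pair of decamers is parted by 1 base.

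PLK2 decamer: AGACTTGCTT
AEN decamer: GGGCTTGCCC
DDB2 decamers: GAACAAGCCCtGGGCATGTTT
RPS27L decamer: AGACAAGCCC
SESN1 decamer: GGACAAGTCT
FDXR decamer: GGGCTTGCCC

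Whole windows are given for AEN, RPS27L and DDB2. AEN and RPS27L were lower in both libraries without EGF than in every library with EGF, whereas DDB2, the only one of the members with a pair of decamers in its window, varied least of all members over the 6 libraries. The AEN window is chr15:88621090-88621389 on the plus strand, with its decamer beginning 34 bases before the start. The RPS27L window is chr15:63157428-63157727 on the minus strand, with its decamer 59 bases before the start. The DDB2 window is chr11:47214724-47215023 on the plus strand, with its decamers after the start. Capitals mark the decamers.

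AEN promoter: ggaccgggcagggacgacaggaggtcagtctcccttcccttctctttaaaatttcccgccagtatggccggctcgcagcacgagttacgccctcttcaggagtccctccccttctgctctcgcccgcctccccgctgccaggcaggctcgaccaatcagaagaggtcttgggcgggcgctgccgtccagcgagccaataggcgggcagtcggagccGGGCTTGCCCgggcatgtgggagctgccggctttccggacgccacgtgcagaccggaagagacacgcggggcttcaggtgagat
RPS27L promoter: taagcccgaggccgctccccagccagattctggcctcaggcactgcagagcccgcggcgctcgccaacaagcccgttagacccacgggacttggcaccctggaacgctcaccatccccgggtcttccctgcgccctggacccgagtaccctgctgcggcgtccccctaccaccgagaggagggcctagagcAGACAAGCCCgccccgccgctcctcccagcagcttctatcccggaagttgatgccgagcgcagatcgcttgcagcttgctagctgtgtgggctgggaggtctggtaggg
DDB2 promoter: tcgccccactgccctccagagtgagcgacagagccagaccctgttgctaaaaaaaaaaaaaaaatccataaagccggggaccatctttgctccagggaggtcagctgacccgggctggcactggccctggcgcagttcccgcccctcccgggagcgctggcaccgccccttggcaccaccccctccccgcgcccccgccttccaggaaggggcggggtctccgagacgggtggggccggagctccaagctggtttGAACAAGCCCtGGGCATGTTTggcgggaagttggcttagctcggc

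Some facts of the libraries bear on every value below. Controls A and B were very close to each other, and libraries A and B without EGF were less so: gene by gene, the SD of the difference was 0.308 between the libraries without EGF and 0.119 between the controls. Over the 33 members alone those SDs were 0.527 and 0.0682. BRCA2 itself had log2 values of 11.15 and 10.89 after BRCA2 siRNA without EGF, 10.88 after BRCA2 siRNA with EGF, and 11.25, 11.24 and 10.19 in controls A, B and P4. The library labelled BRCA2 siRNA at passage 4 was thus above its control, which goes against that label. Every direction that rests on the passage 4 pair holds by label only. At passage 6 BRCA2 differed by -0.23 ± 0.11 without EGF (standard error, adjusted p = 0.2305, limma with the passage term described further on). Over all controls it differed by 0.12 (adjusted p = 0.881, limma). A loss of BRCA2 RNA was thus not called without EGF either. All 12 basal mammary markers passed the filter on low values, among them KRT5, KRT14 and TP63. Luminal markers passed in 5 of 9 (KRT8, KRT18, GATA3, ESR1 and MUC1), and EPCAM, KRT19 and ELF3 did not pass. With the passage term, 6 of the 12 basal markers were called higher without EGF (KRT5, KRT14, KRT17, KRT6B, CDH3 and COL17A1). Of the luminal ones MUC1 was called higher and KRT18 lower. In that fit 3.56% of tested genes were called higher and 2.88% lower. Fibroblast markers (8 of 10 passed) had summed linear values of 6894 and 7075 without EGF, 4356 with BRCA2 siRNA and EGF, and 2235 to 2605 in the controls. COL1A2 and PDGFRA did not pass. COL1A1, COL3A1, FAP and DPT were called higher without EGF over all controls, where 0.853% of tested genes were. With the passage term 5 fibroblast markers were called higher. Endothelial markers passed in 2 of 6 and haematopoietic markers in 2 of 7, and 1 endothelial marker was called higher without EGF with the passage term. The part of any of these differences in the results on p53 targets was not tested.

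**Figure D1:**
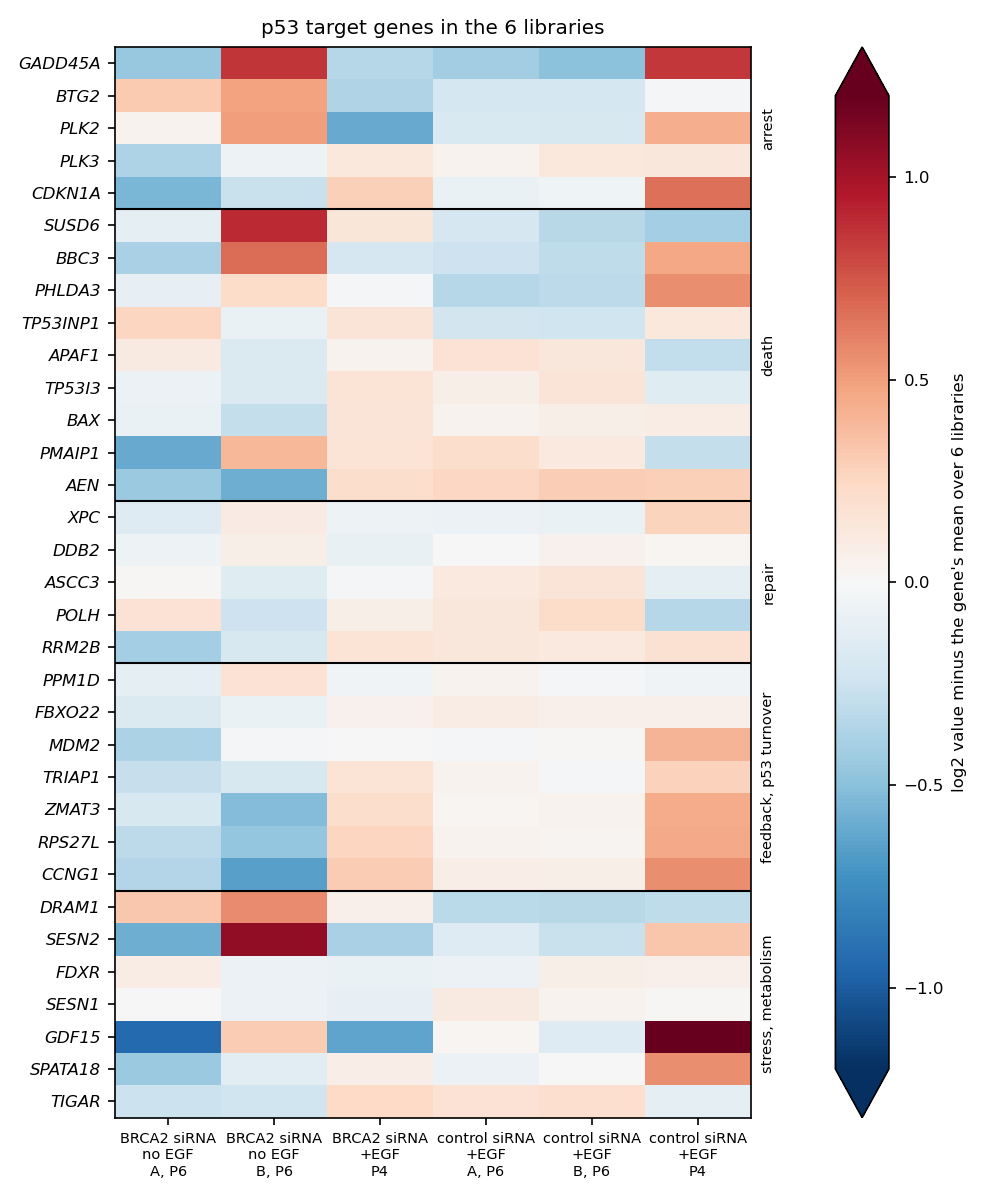
Each row is 1 p53 target gene and each column 1 library; colour is the log2 value minus the gene's mean over the 6 libraries, with shades saturating at 1.2 in either direction. P4 and P6 are passages 4 and 6. The feedback genes other than PPM1D are below their mean in both libraries without EGF and above it in control P4, and GADD45A, SESN2 and BBC3 are high in replicate B without EGF and in control P4.

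Cells with BRCA2 siRNA and no EGF were set against control siRNA cells with EGF. No member passed the limma test over all genes in the fit that pools the 3 controls, in which 146 of 14763 genes passed (0.989%; 0.853% higher and 0.135% lower). The gene count was 0 when either library lacking EGF was omitted, and it was 29, 38 and 951 on omitting control A, B or P4. At an unadjusted p under 0.05 there were 8 members, 6 lower and 2 higher (24.2% of members, against 17.2% of tested genes). The median difference of the 33 members was -0.12 on the log2 scale and that of all tested genes -0.03. Below 0 were 23 of the 33 members, and 19 after either other scaling of the libraries. Of all tested genes 53.9% were below 0 before other scaling. By order of libraries, 13 members were lower in both libraries without EGF than in all 4 libraries with EGF (39.4%, against 22.2% of tested genes), and 2 were higher (6.06%, against 16.6%). Without EGF the 13 were CDKN1A, PLK3, BAX, AEN, RRM2B, MDM2, CCNG1, FBXO22, RPS27L, ZMAT3, TRIAP1, TIGAR and SPATA18, and the 2 higher ones were BTG2 and DRAM1.

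Passage was the same for both libraries without EGF and controls A and B, and these 4 libraries were compared within a limma fit of all 6 libraries that has a passage term. Each passage 4 library is a group of its own there, so it adds nothing to the difference or its spread. In this fit 4 of the 33 members passed (12.1%), against 950 of 14763 genes (6.44%; 3.56% higher and 2.88% lower). AEN and TIGAR fell, and BTG2 and DRAM1 rose. At an unadjusted p under 0.05 there were 12 members (36.4%, against 31.5% of genes). By order alone, 17 members lay below both passage 6 controls (51.5%, against 35.7% of genes) and 6 above (18.2%, against 29.2%). The median member difference was -0.20, with 21 of 33 members below 0, and that of all genes was -0.02, with 52.7% below 0. The 4 calls need both near-identical controls: among the passage 6 libraries alone they were 0 without control A and 0 without control B, where 45 and 47 genes passed. Without replicate A or B of the group without EGF, the only spread left is that between controls A and B, and 25 and 22 members then passed, with 8953 and 6997 genes.

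Among the arrest genes, CDKN1A encodes p21, the inhibitor of cyclin-dependent kinases through which p53 halts the cycle. Its log2 values were 10.14 and 10.42 in libraries A and B without EGF, against 10.61, 10.64 and 11.35 in controls A, B and P4, and it was 10.97 with BRCA2 siRNA and EGF. It was thus lowest in both libraries without EGF and highest in control P4. At passage 6 the difference was -0.34 ± 0.11 (standard error, adjusted p = 0.123, limma with a passage term), and over all controls -0.59 ± 0.26 (adjusted p = 0.320, limma).

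BTG2, an antiproliferative partner of the mRNA deadenylation complex, went the other way. It had 9.49 and 9.66 without EGF, against 8.97, 8.96 and 9.16 in controls A, B and P4, and 8.82 with BRCA2 siRNA and EGF. The groups did not overlap, and BTG2 rose 1.52-fold at passage 6 (0.61 ± 0.09, standard error, adjusted p = 0.0340, limma with a passage term; adjusted p = 0.150 over all controls).

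GADD45A, a damage-inducible growth arrest protein, had 11.96 and 13.26 without EGF, against 11.99, 11.91 and 13.26 in controls A, B and P4, and 12.07 with BRCA2 siRNA and EGF. Its groups overlapped, with replicate B without EGF and control P4 at the same high level. PLK2 and PLK3 are polo-like kinases of the stress response. PLK2 had 12.63 and 13.08 without EGF and 12.41, 12.39 and 13.02 in controls A, B and P4, whereas PLK3 had 8.71 and 9.02 without EGF against 9.13, 9.21 and 9.22 in the controls.

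Among the death genes, AEN, a nuclease that enhances apoptosis, had the lowest difference of all members at passage 6. Its log2 values were 8.93 and 8.79 without EGF, against 9.63, 9.67 and 9.66 in controls A, B and P4, and 9.58 with BRCA2 siRNA and EGF. The 4 libraries with EGF lay within 0.1 of each other, and both libraries without EGF lay well below them. AEN fell at passage 6 to 0.579 times the control level (-0.79 ± 0.09, standard error, adjusted p = 0.0199, limma with a passage term). Over all controls the difference was also -0.79, with an adjusted p of 0.0512.

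The pro-apoptotic BCL2 relatives did not move as a block. BAX, which permeabilises the mitochondrial membrane, had 8.33 and 8.12 without EGF, 8.56 with BRCA2 siRNA and EGF, and 8.45, 8.48 and 8.49 in controls A, B and P4, a difference of -0.24 ± 0.10 at passage 6 (standard error, adjusted p = 0.197, limma with a passage term). BBC3 encodes PUMA, an activator of BAX; it had 6.62 and 7.68 without EGF, 6.80 with BRCA2 siRNA and EGF, and 6.76, 6.70 and 7.47 in controls A, B and P4. PMAIP1 encodes NOXA, which neutralises MCL1, and it had 9.13 and 10.13 without EGF, against 9.95, 9.85 and 9.45 in controls A, B and P4. For both genes the libraries without EGF lay on either side of controls A and B.

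SUSD6, a membrane protein that restrains growth, had 10.38 and 11.39 without EGF, 10.64 with BRCA2 siRNA and EGF, and 10.29, 10.16 and 10.08 in controls A, B and P4, and its passage 6 difference of 0.66 ± 0.34 came mostly from replicate B (standard error, adjusted p = 0.250, limma with a passage term). PHLDA3, a repressor of the kinase AKT, had 9.23 and 9.55 without EGF and 9.30 with BRCA2 siRNA and EGF, between controls A and B (8.99 and 9.01) and control P4 (9.88). The passage 6 differences of the other death genes were 0.32 for TP53INP1, which takes part in autophagy and death, -0.19 for APAF1, the apoptosome scaffold, and -0.24 for TP53I3, a quinone oxidoreductase.

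The passage 6 differences of the 5 repair genes ran from -0.42 to 0.05, and none passed the test with a passage term. RRM2B, the p53-inducible subunit of ribonucleotide reductase, was the lowest, with 9.89 and 10.11 without EGF, 10.47 with BRCA2 siRNA and EGF, and 10.44, 10.42 and 10.49 in controls A, B and P4 (-0.42 ± 0.10 at passage 6, standard error, adjusted p = 0.0713, limma with a passage term). DDB2, which recognises ultraviolet lesions, stayed between 9.77 and 9.93 in all 6 libraries, a range of 0.155. XPC, its partner in nucleotide excision repair, differed by 0.05, and the helicase gene ASCC3 by -0.21. POLH, a translesion polymerase gene, had 9.87 and 9.45 without EGF, 9.76 with BRCA2 siRNA and EGF, and 9.83, 9.92 and 9.36 in controls A, B and P4, so its groups overlapped.

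Of the 7 genes of feedback on p53 and related control, 6 were lower in both libraries without EGF than in all 4 libraries with EGF. The same held for 2 of 5 arrest, 2 of 9 death, 1 of 5 repair and 2 of 7 stress and metabolism genes, and 22.2% of tested genes. Not all 7 act on p53 itself, as the descriptions below show. The difference between roles was not tested. CCNG1, a cyclin that guides a phosphatase to MDM2, had 10.93 and 10.62 without EGF, against 11.36, 11.35 and 11.83 in controls A, B and P4, and 11.58 with BRCA2 siRNA and EGF. Its passage 6 difference was -0.58 ± 0.12 (standard error, adjusted p = 0.0612, limma with a passage term). RPS27L, a ribosomal protein relative that binds MDM2, had 10.64 and 10.49 without EGF, 11.21 with BRCA2 siRNA and EGF, and 10.997, 10.99 and 11.41 in controls A, B and P4 (-0.43 ± 0.08 at passage 6, adjusted p = 0.0557). Neither gene passed in this fit, although their groups did not overlap. RPS27L resembles RPS27, so reads may have been split between them in counting.

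MDM2, the ubiquitin ligase that destroys p53, had 11.41 and 11.77 without EGF, 11.80 with BRCA2 siRNA and EGF, and 11.78, 11.82 and 12.20 in controls A, B and P4. Replicate B without EGF lay only just below control A, and the passage 6 difference was -0.20 ± 0.14 (standard error, adjusted p = 0.358, limma with a passage term). ZMAT3, an RNA-binding regulator of splicing, differed by -0.38, TRIAP1, a mitochondrial inhibitor of apoptosis, by -0.25, and FBXO22, a substrate receptor of a ubiquitin ligase, by -0.20. PPM1D, the phosphatase WIP1 that switches off p53 signalling, was the exception, with 8.28 and 8.55 without EGF against 8.43, 8.37 and 8.34 in controls A, B and P4.

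In the stress and metabolism group, DRAM1, a lysosomal protein that promotes autophagy, had the highest passage 6 difference of all members. Its log2 values were 10.61 and 10.85 without EGF, 10.35 with BRCA2 siRNA and EGF, and 9.97, 9.96 and 9.99 in controls A, B and P4. The controls of both passages agreed closely, and all 3 libraries labelled BRCA2 siRNA were above them. DRAM1 rose 1.70-fold at passage 6 (0.77 ± 0.10, standard error, adjusted p = 0.0278, limma with a passage term). Over all controls the difference was 0.76 with an adjusted p of 0.0651, and it passed there after quantile normalisation (adjusted p = 0.0413) and after centring of the libraries.

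TIGAR, a fructose bisphosphatase that diverts glucose from glycolysis, had 8.52 and 8.53 without EGF, 9.01 with BRCA2 siRNA and EGF, and 8.95, 8.97 and 8.66 in controls A, B and P4. It fell at passage 6 to 0.738 times the control level (-0.44 ± 0.08, standard error, adjusted p = 0.0453, limma with a passage term), and over all controls the difference was -0.34 with an adjusted p of 0.312. The sestrins SESN1 and SESN2 restrain mTORC1. SESN1 differed by -0.11, whereas SESN2 had 9.34 and 10.99 without EGF, 9.54 with BRCA2 siRNA and EGF, and 9.77, 9.66 and 10.26 in controls A, B and P4. Replicates A and B without EGF lay on either side of all controls for SESN2. SPATA18, a factor of mitochondrial quality control, differed by -0.25 and FDXR, the mitochondrial ferredoxin reductase, by 0.01.

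**Figure D2:**
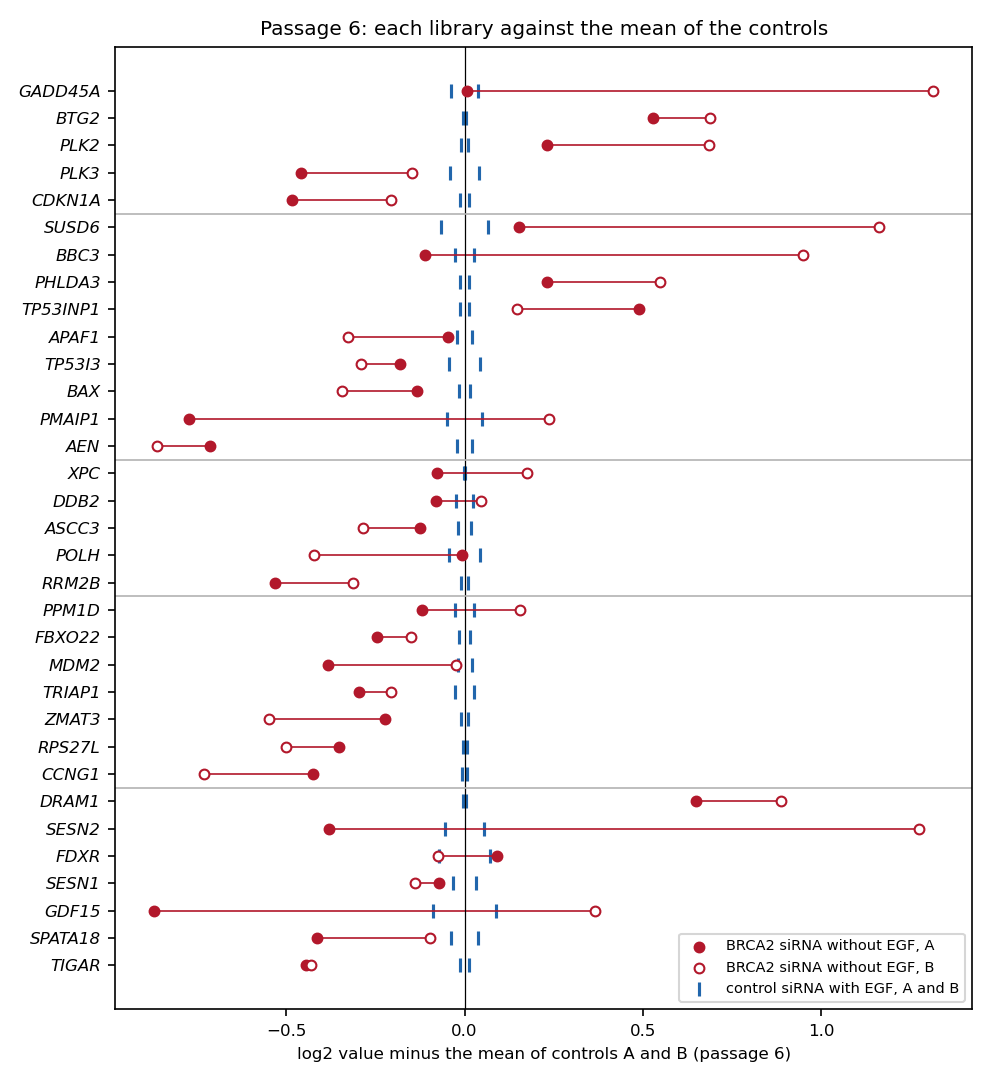
Points give the log2 value of each passage 6 library minus the mean of controls A and B, for each member by role from arrest at the top to stress and metabolism at the bottom; filled and open circles are replicates A and B without EGF and bars are the controls. AEN, TIGAR, CCNG1 and RRM2B have both circles below 0, BTG2 and DRAM1 have both above, and GADD45A, SUSD6, BBC3 and SESN2 have circles over 1 apart.

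The spread between the replicates without EGF was wide in some members. In replicate B, 6 of 33 members (18.2%, against 5.03% of tested genes) exceeded replicate A by over 0.5 on the log2 scale, and 0 were lower by as much (against 4.13%). The 6 were SESN2 (1.66), GADD45A (1.31), GDF15 (1.24), BBC3 (1.06), SUSD6 (1.01) and PMAIP1 (1.01). GDF15, a stress-induced cytokine, had 6.50 and 7.74 without EGF, 6.80 with BRCA2 siRNA and EGF, and 7.46, 7.28 and 8.82 in controls A, B and P4. Among the 6, which replicate is taken decides the direction at passage 6 for GDF15, SESN2, BBC3 and PMAIP1. GDF15 differed from the controls by -0.87 in replicate A alone and by 0.37 in replicate B alone, and SESN2 by -0.38 in A and 1.27 in B. BBC3 differed by -0.11 in A and 0.95 in B, and the PMAIP1 replicates lay on either side of controls A and B.

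Passage was compared in the controls alone, passage 6 (A and B) against passage 4 (P4), in the fit with a passage term. Of the 33 members 2 passed, both lower at passage 6 (6.06%, against 20.1% of tested genes in either direction with 7.71% higher and 12.4% lower). At an unadjusted p under 0.05 there were 13 members (39.4%, against 41.4% of genes). Controls A and B were both below control P4 in 20 members (60.6%, against 49.2% of genes) and both above it in 9 (27.3%, against 43.9%). Their mean was lower by over 0.5 in 8 members (24.2%, against 15.1%) and higher by as much in 1, POLH (3.03%, against 12.5%). The number of members below 0 was 22 of 33, and 16 after centring of the libraries and 17 after quantile normalisation. Of all tested genes 52.4% were below 0 before other scaling. CDKN1A fell to 0.605 times its passage 4 level (-0.73 ± 0.14, standard error, adjusted p = 0.0354, limma) and PHLDA3 to 0.541 times (-0.89 ± 0.15, adjusted p = 0.0308). GDF15, GADD45A and BBC3 had larger or similar differences (-1.45, -1.31 and -0.74) that did not pass, with adjusted p of 0.102, 0.134 and 0.258. The arrest genes were all below 0, with a median of -0.62, and 5 of the 7 feedback genes were, with a median of -0.41, while repair genes had a median of 0.001 and death genes one of -0.01. Both calls were lost without control A (adjusted p 0.201 for CDKN1A and 0.180 for PHLDA3) and without control B (0.221 and 0.206), where 0 genes passed. On omitting library A or B without EGF 23 members passed each time, with 9835 and 9849 of the 14763 genes. The passage 4 side is a single library, so passage and that library cannot be told apart. Of 2963 genes that passed, 38.4% were higher, and 52.6% after centring of the libraries.

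**Figure D3:**
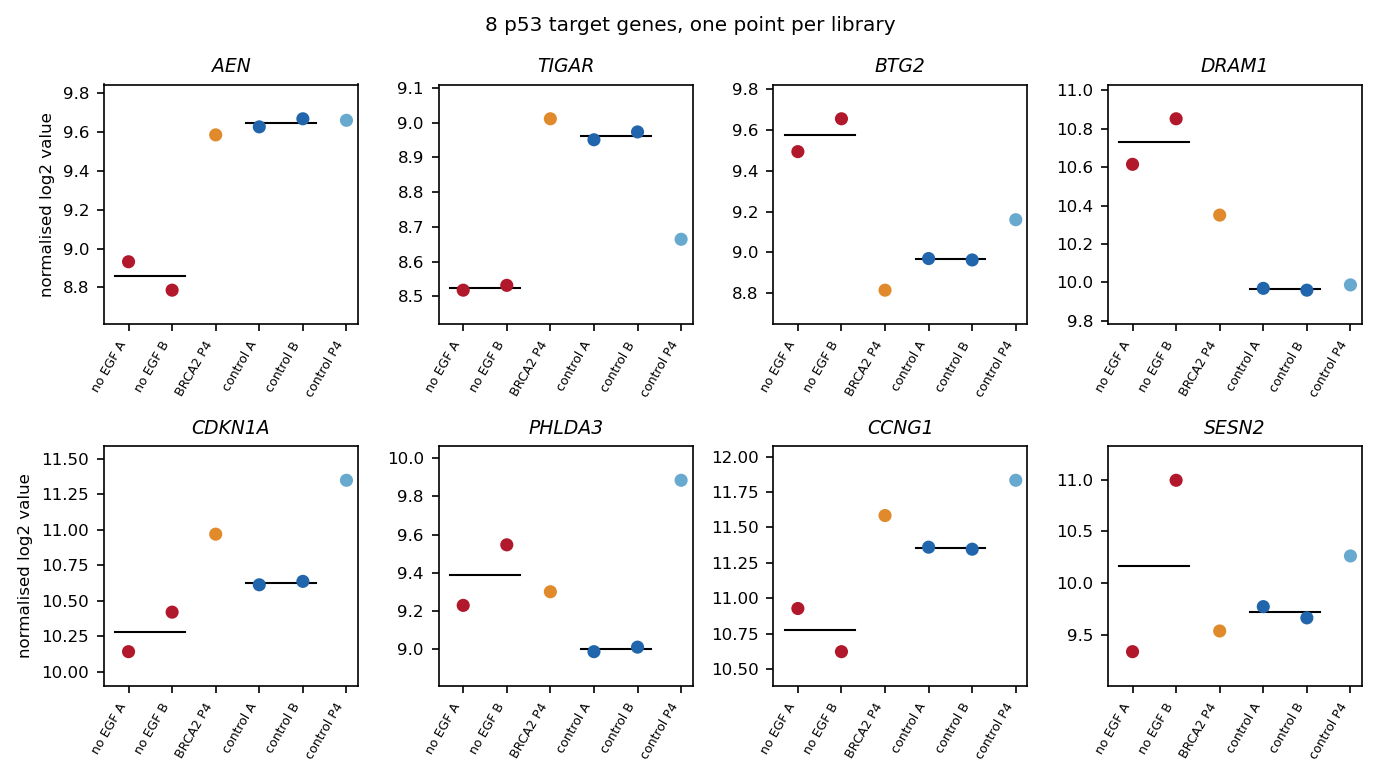
Each panel shows 1 gene, with 1 point per library on the normalised log2 scale and a line at the mean of each group with 2 libraries at passage 6. AEN and TIGAR are lowest, and BTG2 and DRAM1 highest, in the libraries without EGF; CDKN1A and PHLDA3 are highest in control P4, and the SESN2 libraries without EGF are 1.66 apart. The vertical axes differ between panels and do not start at 0.

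BRCA2 siRNA was compared with control siRNA in complete medium. In the fit that pools the controls, 0 of the 33 members and 0 of 14763 genes passed (0.0%, limma), with 0 members and 412 genes (2.79%) at an unadjusted p under 0.05, and the median member difference was 0.01. The passage 4 pair, 1 library each, differed more. GDF15 was at 6.80 in the library labelled BRCA2 siRNA and 8.82 in control P4, a difference of -2.02, and GADD45A differed by -1.19, PLK2 by -1.03, SESN2 by -0.72, BBC3 by -0.67 and PHLDA3 by -0.58. These were the 6 members below -0.5 (18.2%, against 9.27% of tested genes). Only SUSD6 (0.56) was above 0.5 (3.03%, against 8.05%). In the fit with a passage term 0 members passed, the smallest adjusted p being 0.135 for PLK2 (limma), and 5 members had an unadjusted p under 0.05 (15.2%, against 23.3% of genes). Member by member, the SD of the difference between this BRCA2 siRNA library and its own passage control P4 was 0.523, larger than that to control A (0.224) or control B (0.215) of passage 6. Over all tested genes the SD to control P4 was also the largest (0.397, against 0.290 and 0.321 to controls A and B).

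**Figure D4:**
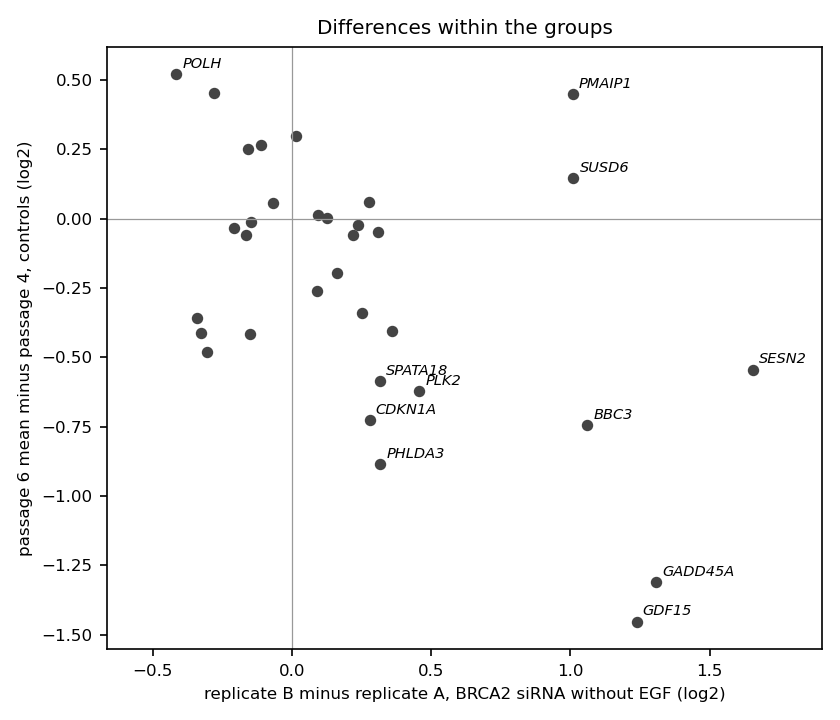
For each of the 33 members the horizontal axis gives replicate B minus replicate A of BRCA2 siRNA without EGF, and the vertical axis the mean of controls A and B at passage 6 minus control P4, both on the log2 scale; members over 0.5 from 0 on either axis are named. GADD45A, GDF15, BBC3 and SESN2 lie at the lower right, higher in replicate B than in A and lower at passage 6. PMAIP1 and SUSD6 are also higher in replicate B than in A but are not lower at passage 6.

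These differences share no library, and over the 33 members their Pearson r was -0.50. Over all 14763 tested genes it was -0.49, close to that of the members. The value is across genes, which are not independent, and is given as a description.

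Cells with BRCA2 siRNA were compared without and with EGF, where passage 6 stands against passage 4. None of the 33 members passed, with 30 of 14763 genes past the threshold (0.203%, limma; 0.176% higher and 0.0271% lower), and 7 members had an unadjusted p under 0.05 (21.2%, against 16.4% of genes). The median member difference was -0.07. PLK2 had the largest positive difference (0.87 ± 0.34, standard error) and CCNG1 the largest negative one (-0.81 ± 0.27), with adjusted p of 0.292 and 0.252 (limma). No gene passed without either library lacking EGF (0), and 9 and 10 passed without control A and control B. Without control P4, 6 of the 33 members passed, a share near that of all tested genes (2404 of 14763). Of these members CDKN1A, AEN, CCNG1, RPS27L and TIGAR were lower and BTG2 was higher.

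Genes that regulate p53 gave no call without EGF. MDM4, the partner of MDM2 in holding p53 down, had 10.05 and 10.46 without EGF, against 9.75, 9.86 and 10.43 in controls A, B and P4. MDM4 was high in replicate B without EGF and in control P4. Of 24 regulators, 0 passed in the comparison without EGF against the controls in either fit. The p53 relatives TP63, which maintains basal epithelium, and TP73 had the largest passage 6 differences among them (0.94 and 0.95, adjusted p = 0.0672 and 0.102, limma with a passage term). In the controls 6 regulators fell at passage 6 and 0 rose (limma), where 12.4% of tested genes were called lower and 7.71% higher. They included the kinase HIPK2 (-1.11, adjusted p = 0.0249), PPP1R13L, the inhibitor iASPP (-1.12, adjusted p = 0.0231), KAT5, TP53BP2 and ZNF385A.

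A wider list of 50 other p53 targets had 45 tested members. Over all controls 3 rose without EGF and 0 fell (0.853% and 0.135% of tested genes), with a list median of 0.11: TP53I11 (1.99, adjusted p = 0.0379, limma), the sulfatase SULF2 (1.54, 0.0324) and PERP, a desmosomal membrane protein (0.88, 0.0440). PERP had 14.55 and 14.42 without EGF, 13.21 with BRCA2 siRNA and EGF, and 13.65, 13.64 and 13.53 in controls A, B and P4. The libraries without EGF were above all others for PERP. With a passage term 5 rose (these 3, NINJ1 and KITLG) and 1 fell, the growth factor PGF (-1.10), against 3.56% and 2.88% of tested genes. All 3 calls over all controls were lost when either library without EGF was omitted, since 0 genes then passed. In the controls 4 of the 45 rose at passage 6 (TNFRSF10A, CASP10, SULF2 and KITLG) and 2 fell (PSTPIP2 and ISCU). Of tested genes 7.71% were called higher there and 12.4% lower. The death receptor genes FAS and TNFRSF10B differed by -0.13 and -0.01 at passage 6. TNFRSF10A had 9.83 and 9.97 without EGF, 9.81 with BRCA2 siRNA and EGF, and 10.34, 10.41 and 9.82 in controls A, B and P4. TNFRSF10D had 10.36 and 9.37 without EGF, 10.77 with BRCA2 siRNA and EGF, and 10.97, 11.07 and 10.47 in those controls. TNFRSF10C was near the filter limit, with 3.57 and 3.76 without EGF and 3.59, 3.59 and 3.48 in the controls.

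Cell cycle genes that the DREAM complex represses when p21 is high were examined beside CDKN1A. Of 30 such genes 0 passed without EGF, although 27 were below 0 at passage 6, with a median of -0.24 (52.7% of tested genes were below 0); MAD2L1 (-0.65) and E2F1 (-0.52) had the largest differences. In the controls 12 rose at passage 6 and 0 fell, with a median of 0.48, where 7.71% of tested genes were called higher and 12.4% lower. The proliferation antigen gene MKI67 had 16.13 and 16.23 at passage 6 (controls A and B) and 15.12 at passage 4 (1.06, adjusted p = 0.0245, limma), and the mitotic kinase gene CDK1 differed by 0.53 (adjusted p = 0.0293). The others included AURKB, CENPF, KIF11, KIF20A, KIF23, MYBL2, E2F1, CCNA2 and PRC1. The list of G1 cyclins and inhibitors had 12 of 13 tested, and 0 passed over all controls. CCND1, the cyclin D1 gene, fell without EGF with a passage term (-1.57, adjusted p = 0.0379, limma), where 2.88% of tested genes were called lower. CCNE2, a cyclin E gene, differed by -1.24 at passage 6, mostly through replicate B. It had 7.79 and 6.30 without EGF, 7.92 with BRCA2 siRNA and EGF, and 8.24, 8.32 and 6.06 in controls A, B and P4. CDK2 and CDKN2C, 2 of the 12, rose in the controls at passage 6 and 0 fell (7.71% and 12.4% of tested genes). Other BCL2 family genes gave 0 calls without EGF among 10 tested; BCL2L1, the survival gene BCL-XL, differed by -0.32 at passage 6, and the BH3-only gene BCL2L11 by -0.31. In the controls BCL2L1 and BMF, 2 of the 10, fell at passage 6 and 0 rose (12.4% and 7.71% of tested genes).

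The genes most like CDKN1A over the 6 libraries, among 11817 with a mean of at least 50, were CCNK (Pearson r 0.998), LSM12 (0.997), AGFG1 (0.997), AOX1 (0.997) and CCDC43 (0.996). Of the other 32 members 8 had an r above 0.8, as had 21.6% of the genes ranked: SPATA18 (0.973), TRIAP1 (0.970), MDM2 (0.920), RPS27L (0.914), CCNG1 (0.872), ZMAT3 (0.846), RRM2B (0.830) and PLK3 (0.801). BTG2 and DRAM1 had the lowest, -0.55 and -0.58. These are descriptions over 6 libraries that share their groups and passages.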

How the data were processed

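Per the submitters' processing notes, TopHat2 2.0.11, DESeq2 and the build hg19 were used; counter, annotation and transformation are not given in the labels. The authors deposited 1 table of normalised log2 values with 57820 Ensembl gene rows, matched to 6 libraries by column names given in the labels; 0 columns were left over. Values run from -1.98 to 19.93, and 25986 rows are 0 in all libraries and 0 rows in some only, and no pseudocount was added. Depth is unknown, so no counting interval is given, and strand use in counting is not stated.

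Groups came from the labels. A filter kept rows whose linear values (2 to the power of the log2 value) averaged 10 or more, and these were tested in limma 3.58.1 (R 4.3.3; trend and robust prior, two-sided, Benjamini-Hochberg over all genes, threshold 0.05), in 1 fit of 3 groups over 6 libraries and, for passage, in 1 fit of 4 groups with siRNA, medium and passage (the passage term). A group of 1 library takes its spread from the others. The procedure was tested on simulated data with 1 spread per gene shared by all 6 libraries. The replicate pairs here have unequal spreads, so that simulation could not check the p-values under such spreads. Members, lists and tests were chosen with earlier results of these data known. Members described in full are the 2 of each role with the largest passage 6 difference, those past a threshold, and CDKN1A, MDM2, BBC3, BAX and GDF15; from each other list, the 2 with the largest difference, and those past the threshold. Other members and FAS, TNFRSF10B, TNFRSF10C, TNFRSF10D, MKI67 and CDK1 were named after their values were seen. Coordinates are those of the RefSeq promoter table (GRCh38.p14) and were not combined with the hg19 values. Alternatives were other filters, other scalings, a plain prior, the passage term, passage 6 libraries alone, a replicate block, controls A and B averaged, and leaving out each library; the block with passage 6 libraries alone and the crossed pairing were added after seeing the data. Some genes of the lists are counted but not reported singly here.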

Additional observations from a re-analysis of the deposited data

How the results depend on the processing

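With no filter, 87 genes passed without EGF against the controls, 18 without against with EGF and 0 between passages. With a mean of at least 50 the first 2 counts were 94 and 13, and 3 members passed between passages. With a passage term 950 genes and 4 members passed without EGF against the controls (member median -0.20), and the median for BRCA2 siRNA with EGF was -0.11. For BRCA2 siRNA without against with EGF, this fit also subtracts the difference between passages in the controls. That is another quantity than in the main fit and rests on control P4 too. It gave 569 genes and a member median of 0.0185. Passage 6 libraries alone gave 959 genes and 4 members (median -0.20). This is no separate check of the passage term, since the passage 4 libraries add nothing to the spread there. With controls A and B averaged the counts were 37, 11 and 0 genes, and 0 members between passages. After centring, 1 member passed without EGF (DRAM1) and the passage median was 0.0137; after quantile normalisation 1 member passed and the median without EGF was -0.0565. With no trend or robust prior 56 genes passed without against with EGF.

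The replicate letters pair no libraries by the labels. As a block (the replicate block) they gave 6 genes without EGF against the controls, 0 without against with EGF, and 4 members between passages with a median of -0.15; at passage 6 alone the block gave 1219 genes and 4 members (median -0.20), of which CCNG1 came to pass (adjusted p = 0.0361, limma) and TIGAR no longer did (0.0758). Deviations of same-lettered libraries had a correlation of -0.17 over genes and -0.65 over the members, and the crossed pairing, added after seeing the data, gave 10 genes without against with EGF, and at passage 6 alone 1781 genes and 7 members (median -0.20), with RRM2B, CCNG1 and RPS27L beside the 4 of the passage term.

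Leaving out each library in turn gave 0 to 951 genes, 0 to 4 members and member medians of -0.24 to -0.0819 without EGF against the controls. It gave 0 to 2404 genes, 0 to 6 members and medians of -0.22 to -0.0684 without against with EGF. Between passages it gave 0 to 9849 genes, 0 to 23 members and medians of -0.13 to -0.0595. The highest counts between passages arise without library A or B of BRCA2 siRNA without EGF, where controls A and B alone set the spread; the highest for the other comparisons arise without control P4. Causes of other shifts were not tested. Of 1003 alternative values of single genes, 881 kept their direction and their side of the threshold, 54 came to pass, 8 ceased to pass and 60 that never passed changed sign. Unknown depth limits all low values.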

Other observations

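Several members that were higher in replicate B than in replicate A without EGF are also known to respond to ATF4, the transcription factor of the amino acid response. Genes of that response were therefore read in the same libraries, a choice made after the values were seen. ASNS, the asparagine synthetase gene, had log2 values of 11.27 and 12.73 in libraries A and B without EGF, 11.79 with BRCA2 siRNA and EGF, and 12.15, 11.88 and 12.55 in controls A, B and P4. DDIT3, which encodes CHOP, had 6.49 and 8.05 without EGF, 6.57 with BRCA2 siRNA and EGF, and 6.56, 6.45 and 8.34 in controls A, B and P4. TRIB3 had 8.95 and 10.61 without EGF, 10.001 with BRCA2 siRNA and EGF, and 9.95, 9.77 and 10.50 in controls A, B and P4. CHAC1 had 6.75 and 8.62 without EGF, 7.29 with BRCA2 siRNA and EGF, and 7.59, 7.21 and 8.07 in controls A, B and P4. ATF3, which is also in the wider list of p53 targets, had 8.39 and 10.44 without EGF and 8.57 with BRCA2 siRNA and EGF. In controls A, B and P4 it had 8.46, 8.36 and 10.05. ATF4 itself had 13.28 and 13.82 without EGF, 14.03 with BRCA2 siRNA and EGF, and 13.83, 13.73 and 14.40 in controls A, B and P4. Replicate B without EGF thus lay between controls A and B for ATF4. All of these genes were higher in replicate B than in replicate A, and in control P4 than in controls A and B. The other passage 4 library, BRCA2 siRNA with EGF, was below control P4 in all of them. Over all tested genes, replicate B minus A and control passage 6 minus passage 4 had a Pearson r of -0.49. How many tested genes share this order was not counted. The relation of these genes to the p53 targets was not tested.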
